A study of Mus musculus with 2 samples.

Results

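Among cultured costal-cartilage-derived stem cells (CDSCs), the cells richest in transcripts of Il1rl1 and Hmcn1 were examined as a group. They were chosen on those 2 genes: for each cell, the share of its transcripts from Il1rl1 and the share from Hmcn1 were each divided by the mean share of that gene over all cells, the 2 quotients were averaged to a score, and the 10% of cells with the highest score were taken. This gave 454 of the 4543 cultured cells that passed the cell filter, and the other 4089 cells of the same library were the comparison. The whole series held 22694 cell barcodes, of which 15502 passed the same filter.

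CDSCs had been released by collagenase from rib cartilage of C57BL/6J mice, either CD45.1 or ZsGreen, within a week of birth, and sorted as CD45- CD51+ cells, although the labels name bone marrow as the tissue. The study asked whether culture changes these cells, with 1 primary library, made from cells without culture, and 1 cultured library, made from cells grown in serum-containing minimum essential medium to passages 2 to 3. Captured transcripts had been counted by their unique molecular identifiers (UMIs) for every gene in every cell barcode. Members and comparison cells came from the same library, so there was no replicate and no test; all intervals are exact 95% intervals that cover counting error only.

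Il1rl1 encodes ST2, the receptor for the alarmin IL-33, a cytokine released from damaged cells. ST2 signals with the accessory protein Il1rap through the adaptors used by the IL-1 receptors, and the gene also gives a secreted form that binds IL-33 without signalling. It is best known on mast cells, group 2 innate lymphoid cells and regulatory T cells, and fibroblasts and stromal cells can carry it too. Hmcn1 encodes hemicentin-1, a very large secreted protein of the fibulin family that helps to anchor tissues at basement membranes. The library was made from transcript ends at the poly(A) tail and counted per gene, so the membrane and secreted forms of ST2 were not told apart.

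On GRCm38, Il1rl1 (ENSMUSG00000026069) lies on chromosome 1 from 40429570 to 40465415 on the plus strand, and Hmcn1 (ENSMUSG00000066842) on the same chromosome from 150562524 to 150993435 on the minus strand. Because the members were defined by RNA of these genes, the windows from 250 bases before to 50 bases after their RefSeq starts (GRCm38.p6) are shown 5′ to 3′. Il1rl1 has 2 such starts, at chr1:40429320-40429619 on the plus strand and at chr1:40439379-40439678 on the plus strand, and Hmcn1 has 1, at chr1:150993386-150993685 on the minus strand. Capitals mark matches to 2 short motifs searched on both strands, GGAATG (the TEAD motif) and AGATAA (the GATA motif), and no 2 of these matches overlapped.
Il1rl1, first start: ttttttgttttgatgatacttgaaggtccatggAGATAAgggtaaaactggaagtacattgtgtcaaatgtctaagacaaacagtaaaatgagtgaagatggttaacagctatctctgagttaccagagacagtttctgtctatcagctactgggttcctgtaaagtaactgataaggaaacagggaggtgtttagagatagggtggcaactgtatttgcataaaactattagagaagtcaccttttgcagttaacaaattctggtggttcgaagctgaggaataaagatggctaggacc
Il1rl1, second start: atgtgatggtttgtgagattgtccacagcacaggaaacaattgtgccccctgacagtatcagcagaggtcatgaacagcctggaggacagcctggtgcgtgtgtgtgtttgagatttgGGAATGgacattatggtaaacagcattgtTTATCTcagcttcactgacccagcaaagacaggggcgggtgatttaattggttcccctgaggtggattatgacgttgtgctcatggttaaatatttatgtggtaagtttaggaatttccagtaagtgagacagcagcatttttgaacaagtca
Hmcn1: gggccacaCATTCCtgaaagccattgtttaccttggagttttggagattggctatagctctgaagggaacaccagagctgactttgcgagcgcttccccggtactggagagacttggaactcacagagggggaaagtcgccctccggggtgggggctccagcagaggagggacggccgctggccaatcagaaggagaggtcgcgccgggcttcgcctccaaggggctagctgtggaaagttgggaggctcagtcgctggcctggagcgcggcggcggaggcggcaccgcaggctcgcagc
The GATA letters were present once in each Il1rl1 window and the TEAD letters once in the second Il1rl1 window and once in the Hmcn1 window. Over all 32851 mouse promoter windows of that length, 11.2% held the GATA letters and 14.7% the TEAD letters. These matches describe the letters and say nothing of binding. The AP-1 letters TGANTCA, the CRE letters TGACGTCA, the NF-kB letters GGGANTTCC and the TATA box letters TATAAA were in none of the 3 windows, against 7.81%, 1.79%, 1.68% and 13.6% of all windows. Windows were on hand for 14 of the 17 genes made up of the rule genes and the 15 highest genes below. The TEAD letters occurred in 3 of the 17 windows of these 14 genes, those of Dio2, Hmcn1 and Il1rl1.

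The values that chose the members were as follows and are a description. The median member held 23 Il1rl1 UMIs, with a range from 0 to 392, against a median of 2 in the other cells, whose highest value was 91. For Hmcn1 the median member held 17 UMIs, from 0 to 142, against a median of 0 and a highest value of 34. Summed over cells and scaled to CPM, the count of a gene divided by all counts and given per 1000000 UMIs, Il1rl1 was at 503 CPM in members and 72.0 CPM in other cells, and Hmcn1 at 303 and 20.4 CPM. The other cells were thus not free of either transcript: 71.4% of them held at least 1 Il1rl1 UMI and 35.2% at least 1 Hmcn1 UMI. Scores ran from 2.58667 at the last member to 27.4, and the first cell outside was at 2.58287, so the border cut through a continuous distribution. The last member held 25 Il1rl1 and 11 Hmcn1 UMIs, and the first cell outside held 43 and 15 UMIs in a library of 136661 UMIs.

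Members were of 3 kinds. In 259 members (57.0%) both genes were above their mean share, in 93 (20.5%) Il1rl1 alone was, and in 102 (22.5%) Hmcn1 alone was. The Il1rl1-only members had 1006 CPM of Il1rl1 and 13.6 CPM of Hmcn1, a level of Hmcn1 below that of the other cells. The Hmcn1-only members had 425 CPM of Hmcn1 and 54.0 CPM of Il1rl1. The top 10% by Il1rl1 alone and the top 10% by Hmcn1 alone shared 110 cells. These were 24.2% of each set, where unrelated sets would share about 10%. Across all 4543 cells the Pearson correlation of log2(CPM + 1) between the genes was 0.27, and 0.26 over the 4156 cells with at least 20000 UMIs. These cells share a library and a depth range, and the value is given as a description.

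**Figure D1:**
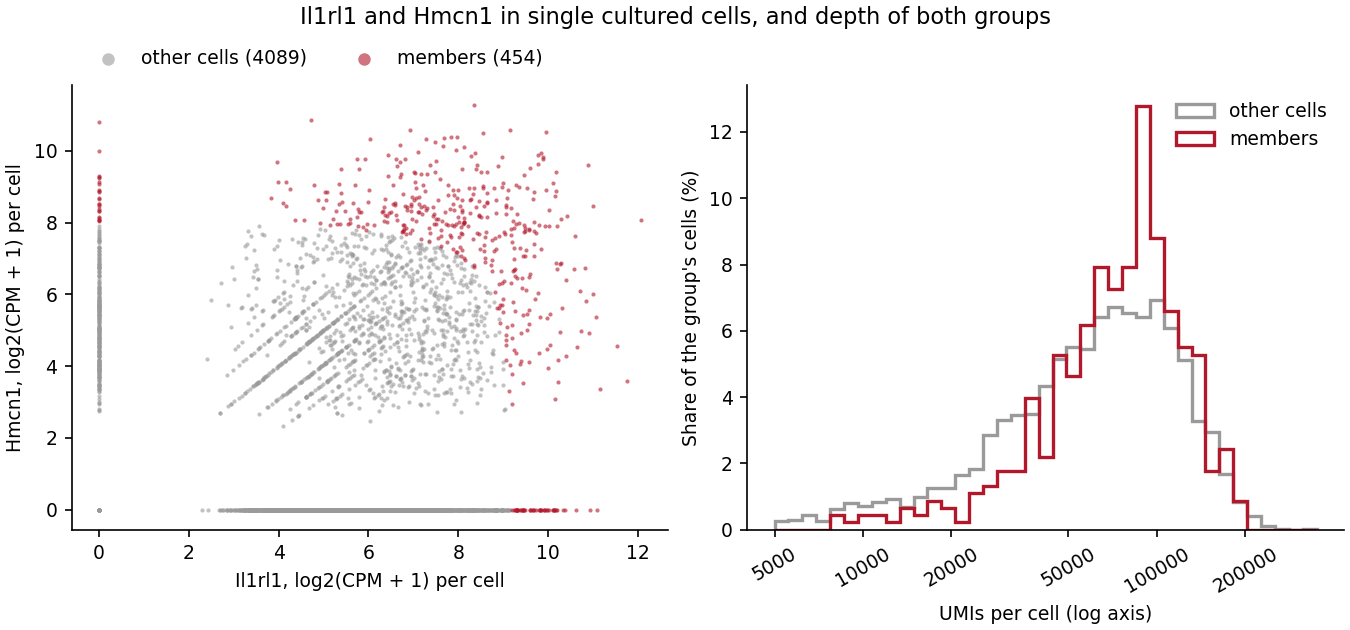
Left, each point is 1 cultured cell by its Il1rl1 and Hmcn1 level on the log2(CPM + 1) scale, with the 454 members in red and the 4089 other cells in grey; members fill the upper and right edges with no gap to the other cells, and points along an axis hold no UMI of the other gene. Right, the share of each group's cells by UMIs per cell (log axis), with medians of 78697 for members and 65171 for other cells.

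To see how far counting error in the choice raised these levels, each cell's UMIs were divided at random into 2 parts. Cells were chosen on the first part and read in the second. Of the 454 cells so chosen, 408 were also members. In the part not used for choosing, Il1rl1 was at 492 CPM in chosen cells and 73.8 CPM in the rest, 6.67-fold higher with an interval of 6.49 to 6.86. Hmcn1 was at 295 and 21.7 CPM there, 13.6-fold higher with an interval of 13.0 to 14.2. Both parts came from the same cells, so cells high in the first part were bound to be mostly high in the second. The values therefore bear on counting error alone and are no support for the group.

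Neither transcript was abundant before culture. In the 10959 primary cells that passed the filter, Il1rl1 had 22 UMIs in 12 cells, or 0.164 CPM, and Hmcn1 had 638 UMIs in 320 cells, or 4.75 CPM. A UMI of both genes was found in 2 primary cells. Primary cells were shallower, with a median of 10432 UMIs against 66411 in the cultured library, and culture cannot be told apart from library or animals.

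Few whole-library facts bear on the members. Kept cultured cells had 328914639 UMIs in all, 36503752 of them in members. Members were deeper than other cells, with a median of 78697 against 65171 UMIs and 8166.5 against 7710 genes per cell. Mitochondrial transcripts took a median of 2.46% of UMIs in members and 2.34% in other cells, but 7.05% of members and 15.7% of other cells had under 1% of them. Of 32 barcodes present in both libraries, 12 were kept cultured cells and 4 were members. The part of depth and mitochondrial share in the results below was not tested.

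The members were then compared with the other cells over all genes. Of 8675 genes with at least 10 CPM in either group, 205 were at least 1.5-fold higher in members (2.36% of those compared) and 225 at least 1.5-fold lower (2.59%), with a median log2 ratio of 0.07 over all of them. Under TMM scaling, which trims the genes of extreme ratio before it sets the groups' totals and moved that median to 0.0020, 155 were higher and 285 lower, so the share of higher genes among those past 1.5-fold was 35.2% in place of 47.7%. Without the cells under 1% mitochondrial UMIs the numbers were 167 and 284. The Il1rl1 and Hmcn1 genes themselves were left out.

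Among genes with at least 50 CPM in either group, the highest was Msln, which encodes mesothelin, a surface glycoprotein best known from mesothelium. It was at 79.3 CPM in members and 14.5 CPM in other cells, a log2 ratio of 2.46 with an interval of 2.39 to 2.52. Bnc1, a zinc finger transcription factor of keratinocytes and mesothelium, was at 52.0 and 18.0 CPM (log2 ratio 1.53). Yet the defining mesothelial genes Wt1, Lrrn4 and Muc16 had no UMI in members, Upk3b had 8 UMIs among all 454 members, and of the 12 mesothelial markers only Msln and Bnc1 reached 10 CPM. This list was drawn up after the values of Msln and Bnc1 had been seen. Msln was also unevenly spread: the middle member was at 9.94 CPM and the upper quartile at 69.5 CPM, and its level differed widely among members, whereas Bnc1 was at 39.1 CPM in the middle member and at 0 in the middle other cell.

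Angptl7, a secreted angiopoietin-like protein, was at 143 and 35.5 CPM (log2 ratio 2.01, 1.96 to 2.06). Its level followed Il1rl1 more than Hmcn1 among the kinds of member, with 145 CPM in Il1rl1-only and 51.2 CPM in Hmcn1-only members. Msln stood the other way round, at 36.2 CPM in Il1rl1-only and 64.9 CPM in Hmcn1-only members, and was at 100 CPM where both genes were high. Ptgs1, Gas7, Ahrr and Dio2 had their highest level in the Il1rl1-only kind, Dio2 with 102 CPM there and 57.3 CPM in the Hmcn1-only kind. In the shallowest of 5 equal depth ranges, which held 46 members, the log2 ratio of Angptl7 was 0.27, and in the other ranges it lay between 1.63 and 2.93. Over the 4156 cells with at least 20000 UMIs, the Pearson correlation of Angptl7 was 0.29 with Il1rl1 and 0.29 with Hmcn1.

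Genes of prostaglandin synthesis differed in both directions. Pla2g4a, the cytosolic phospholipase that frees arachidonic acid, was at 489 CPM in members and 264 CPM in other cells (log2 ratio 0.89). The cyclooxygenases Ptgs1 and Ptgs2, which convert arachidonic acid to the prostaglandin precursor, were at 57.1 against 25.2 CPM (1.18) and 538 against 286 CPM (0.91). The middle member was at 498 CPM of Ptgs2 and the middle other cell at 213 CPM. Ptgis, which makes prostacyclin from that precursor, went the other way, with 6.96 against 44.5 CPM (-2.68), and Ptges, a prostaglandin E synthase, was at 14.96 and 13.5 CPM (0.14). Of 9 measured genes on this list, also drawn up after values had been seen, 3 were higher and 1 lower. The shares over all genes compared were 2.36% and 2.59%. The list's median log2 ratio was 0.14 against 0.07 over all genes.

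The other genes among the 15 highest had varied functions. Nt5e (CD73), the ecto-nucleotidase that makes adenosine and a mesenchymal stromal surface marker, was at 61.6 and 26.0 CPM (log2 ratio 1.24). Slit3, a secreted guidance ligand, was at 232 and 108 CPM (1.11), and Bmpr1b, a type I receptor for bone morphogenetic proteins (BMPs), at 104 and 51.1 CPM (1.03). Gsto1, a glutathione transferase, was at 227 and 103 CPM (1.14), and Ahrr, the repressor of the aryl hydrocarbon receptor, at 71.6 and 30.4 CPM (1.24). Dio2, which activates thyroid hormone, the actin-linked Gas7, the growth factor adaptor Garem1, the mitochondrial carrier Slc25a30 and the non-classical MHC gene H2-T22 had log2 ratios between 0.94 and 1.45. H2-T22 has close relatives in the MHC, so its reads may be shared with them.

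Among genes with at least 50 CPM in either group, the 15 lowest were led by Lcn2, a secreted iron-trapping lipocalin, at 12.6 CPM in members and 64.0 CPM in other cells (log2 ratio -2.34, -2.48 to -2.21). Hp, the haemoglobin-binding haptoglobin, was at 45.3 and 125 CPM (-1.46) and Gpx3, the secreted glutathione peroxidase, at 17.2 and 73.3 CPM (-2.09). Genes of cartilage matrix stood beside them. Comp, the cartilage oligomeric matrix protein, was at 12.0 and 50.7 CPM (-2.08), Fmod, a small proteoglycan that regulates collagen fibrils, at 16.3 and 60.5 CPM (-1.89), and Col2a1, the main cartilage collagen, at 164 and 531 CPM (-1.69). All 3 were far above both cultured groups in primary cells, with 53561 CPM for Col2a1, 2937 CPM for Comp and 1787 CPM for Fmod. The chondrocyte marker list had 6 measured genes, of which only Comp and Col2a1 were lower and none was higher. Its median was -0.50 and 2 of its genes had ratios above 0, so the difference did not extend to all cartilage genes.

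Cxcl12, the chemokine that holds blood stem cells in the marrow niche, was at 177 CPM in members and 595 CPM in other cells (log2 ratio -1.75, -1.79 to -1.72). The middle member was at 105 CPM and the middle other cell at 262 CPM. Igfbp7, which binds insulin-like growth factors, was at 154 and 420 CPM (-1.45), Igf1 itself at 17.5 and 50.3 CPM (-1.52), Bmp4 at 22.7 and 65.3 CPM (-1.53) and the Wnt modulator Sfrp2 at 24.6 and 78.8 CPM (-1.68). The fatty acid carrier Fabp5, the imprinted gene Peg3, the augurin precursor Ecrg4 and the matrix gene Adamtsl3 completed the 15, with log2 ratios from -1.89 to -1.42.

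**Figure D2:**
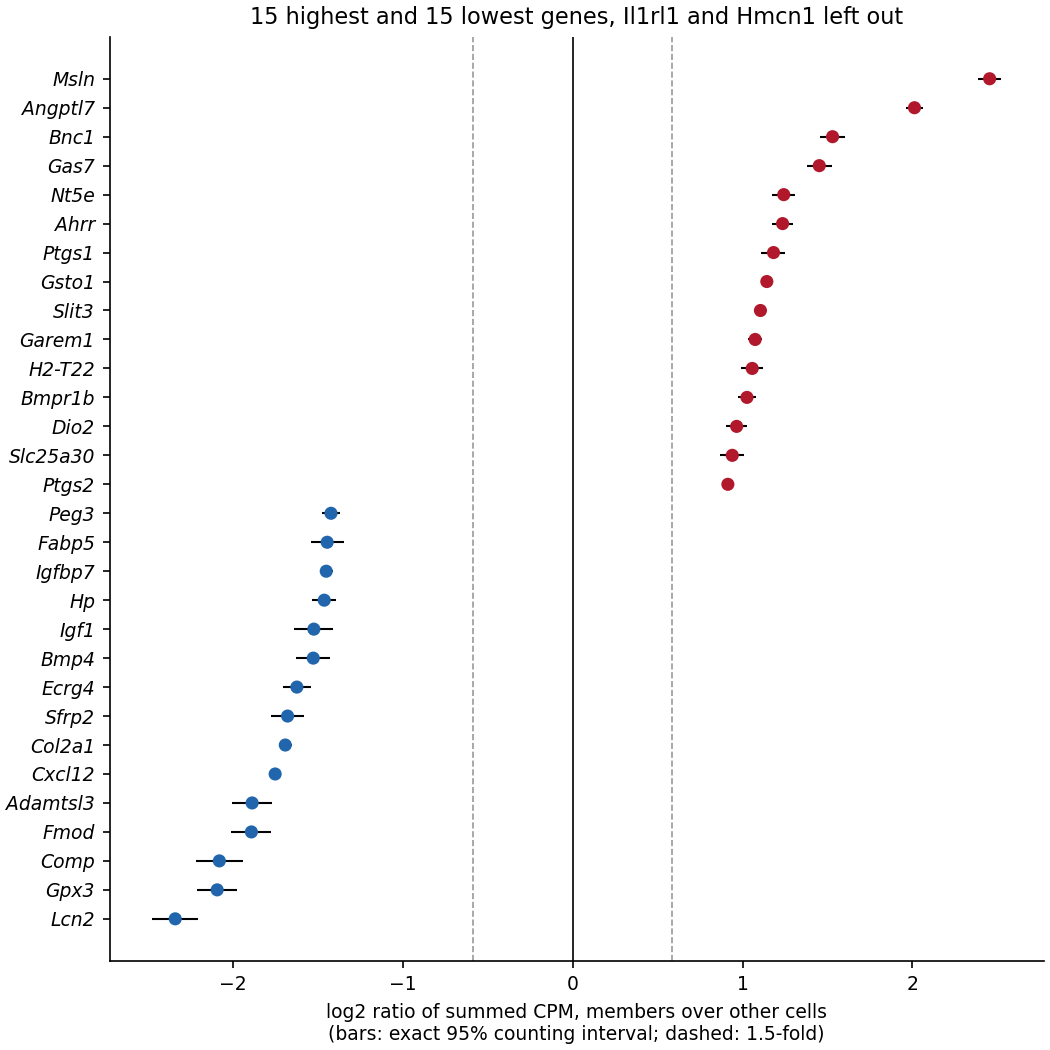
Log2 ratio of summed CPM, members over other cells, for the 15 highest (red) and 15 lowest (blue) genes with at least 50 CPM in either group; horizontal bars are exact 95% counting intervals and dashed lines mark 1.5-fold. Msln at 2.46 and Lcn2 at -2.34 are the ends of the range, and every interval lies beyond the dashed lines.

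Levels of several of the same genes also changed with the score below the border that defined the members. The bins were cut on that score and the genes were picked from these same cells. The values are therefore a description and no support for the group. The 4543 cells were placed in 10 equal bins by score, with the members as bin 1. In the 455 cells of bin 2, which held no member, Msln was at 35.4 CPM, Angptl7 at 89.9 CPM and Bnc1 at 35.7 CPM, and in bin 5 at 8.82, 30.5 and 16.4 CPM. Cxcl12 was at 255 CPM in bin 2, 512 CPM in bin 5 and 919 CPM in bin 8, and Col2a1 at 294, 442 and 792 CPM. Not every gene kept this order. Sfrp2 was at 24.6 CPM in bin 1 and 24.1 CPM in bin 2, and Igf1 at 63.1 CPM in bin 6 and 52.8 CPM in bin 8. Msln was at 6.85 CPM in bin 7 and 10.5 CPM in bin 8. Bins 9 and 10 are harder to read, because 446 of 455 and all 454 of their cells held neither rule gene and their median depth was 35767 and 37045.5 UMIs.

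**Figure D3:**
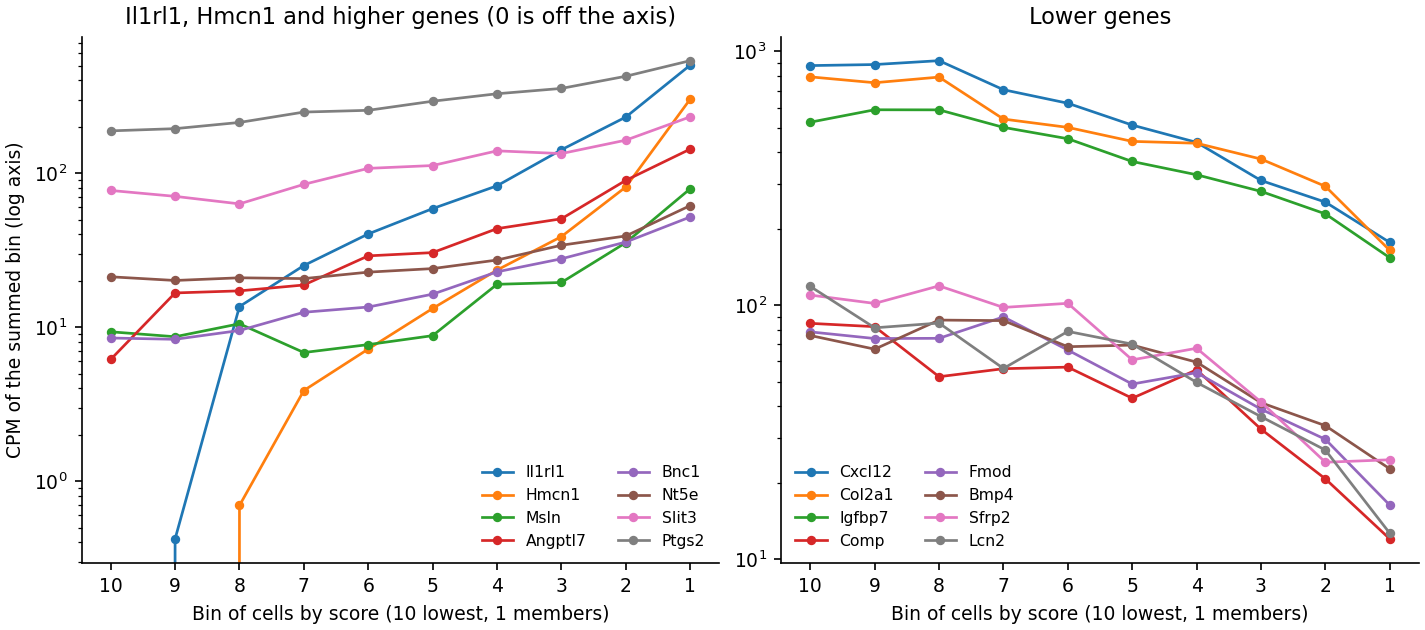
CPM of summed cells (log axis) in 10 bins of the 4543 cultured cells by score, from the lowest (10) to the members (1); left, Il1rl1, Hmcn1 and 6 of the higher genes, right, 8 of the lower genes. Il1rl1 and Hmcn1 run off the axis where they reach 0 in the lowest bins, Ptgs2 goes from 188 CPM in bin 10 to 538 CPM in bin 1, and Cxcl12 from 879 to 177 CPM.

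The genes most like each rule gene across the 4156 deeper cells overlapped in part. For Il1rl1 they were Bnc1 (Pearson r = 0.33), the hyaluronan receptor Cd44 (0.32), Ptgs2 (0.30), Lgals3, Angptl7, Gsto1, Slit3, Ctxnd1, Hmcn1 and Cd248 (0.25). For Hmcn1 they were the elastic fibre protein Fbln5 (0.36), Bnc1 (0.36), Ptgs2 (0.32), Pla2g4a, Angptl7, Nt5e, Gsto1, the non-muscle myosin Myh10, Msln and Pcdh7 (0.26). These are correlations of log2(CPM + 1) over cells of 1 library that share depth, and are descriptions.

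The measured partners of ST2 differed by less than 1.5-fold. Il1rap, the accessory chain, was at 26.5 CPM in members and 23.7 CPM in other cells (log2 ratio 0.16, 0.06 to 0.26), and Il1r1, the IL-1 receptor that uses the same accessory chain, at 71.6 and 84.2 CPM (-0.23). The signalling kinase Irak1 and the ubiquitin ligase Traf6 had log2 ratios of 0.10 and 0.01. Il33, the ligand, had 22 UMIs among all members, or 0.603 CPM, against 0.701 CPM in other cells. Of 8 measured receptors and adaptors other than Il1rl1, only Il18rap, a chain of the IL-18 receptor, passed 1.5-fold, at 13.7 and 5.33 CPM (1.36, 1.21 to 1.51).

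Il18rap sits in the same chromosome 1 array of IL-1 family receptors as Il1rl1, from 40515362 to 40551705. Il18r1 lies between them, with its start 136 bases past the end of Il1rl1 on the same strand. It had 54 UMIs in members and 97 in other cells, or 1.48 and 0.332 CPM (log2 ratio 2.16, 1.65 to 2.65), and was below the level of 10 CPM used for the calls. Upstream of Il1rl1, Il1rl2 was at 2.19 and 1.76 CPM and Il1r2 had 5 UMIs in members. Reads that run past the annotated end of Il1rl1 were not separated from those of Il18r1.

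Genes of the NF-kB pathway, which ST2 can activate, and genes it induces did not share a direction. Over all genes compared, 2.36% were higher and 2.59% lower. Of 16 measured genes Ptgs2 alone was higher, the chemokines Cxcl1 (9.07 and 22.6 CPM, log2 ratio -1.32) and Cxcl5 (17.9 and 38.5 CPM, -1.10) were lower, and the median was 0.10. Cxcl1 lost its call in cells chosen by Il1rl1 alone. Cxcl5 lost its call among the top 20% of cells and in cells chosen by Hmcn1 alone. Il6 was at 23.5 and 24.6 CPM. The growth factor Areg, at 14.3 and 6.93 CPM (1.04), and the cytokine Il11, at 11.4 and 6.45 CPM (0.82), were the higher genes among 17 growth factor and ERK response genes, whose median was 0.0036. Areg and Il11 lost their call in cells chosen by Hmcn1 alone.

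Matrix genes differed in both directions, where 2.36% of all genes compared were higher and 2.59% lower. Of 6 other measured hemicentins and fibulins, Fbln5 was at 1125 CPM in members and 673 CPM in other cells (log2 ratio 0.74) and Fbln2 at 686 and 430 CPM (0.68), whereas Fbln7 was at 7.73 and 15.3 CPM (-0.99). None of the 3 passed 1.5-fold in cells chosen by Il1rl1 alone. Hmcn2, the second hemicentin, had 14 UMIs in members. Npnt (nephronectin), an integrin ligand of basement membranes, was at 148 and 92.7 CPM (0.68), and 10 of 12 measured basement membrane genes had ratios above 0, with a median of 0.32. The type IV collagens Col4a1 and Col4a2 were at 0.40 and 0.42 and the linker Nid1 at 0.34, all short of 1.5-fold. Npnt itself fell under 1.5-fold without the cells of under 1% mitochondrial UMIs and when cells were chosen by either gene alone.

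Among 17 measured hyaluronan and small proteoglycan genes none was higher and 7 were lower, against 2.36% and 2.59% of all genes compared. The 7 were Vcan, Dcn, Lum, Fmod, Aspn, Ogn and Omd, and the list's median was -0.37. Dcn (decorin) was at 39.8 and 68.3 CPM (-0.78) and Omd (osteomodulin) at 10.9 and 22.6 CPM (-1.05). Of 14 fibrillar and associated collagens, Col12a1 and Col5a3 were higher and Col1a2, Col6a3, Col8a2 and Col14a1 lower, with a median of -0.22. Col1a2 was at 81.9 and 200.2 CPM (-1.29), while its partner chain Col1a1 was at 632 and 715 CPM (-0.18). Tenascin C (Tnc), a matrix protein of wounds and developing tendon, was at 477 and 275 CPM (0.79), but the matricellular genes Ccn2 (98.3 and 250 CPM, -1.35) and Ccn5 (71.0 and 183 CPM, -1.36) were lower. Eln, which encodes elastin, was at 8.33 and 18.4 CPM (-1.15).

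Contractile genes were lower. Of 12 measured smooth muscle contractile genes, 5 were lower, against 2.59% of all genes compared, and none was higher. All 12 had ratios under 0, with a median of -0.44. In cells chosen by Hmcn1 alone, 3 were lower and 2 had ratios above 0. Acta2, smooth muscle actin, was at 752 and 1285 CPM (-0.77) and Cnn1 (calponin) at 25.3 and 64.6 CPM (-1.35), but Tagln (transgelin) was at 1239 and 1288 CPM (-0.06). In the middle member Acta2 was at 112 CPM and in the middle other cell at 206 CPM. Acta2 and Myl9 lost their call in cells chosen by Hmcn1 alone, and Myl9 and Actg2 lost theirs without dividing cells.

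Niche genes were divided. Of 16 measured stromal niche genes, Kitl, Pdgfra, Nt5e and Cd44 were higher and Cxcl12, Foxc1, Ly6a and Eng lower, with a median of -0.15. The shares over all genes compared were 2.36% higher and 2.59% lower. With TMM scaling or with equal weight for each cell, 4 were higher and 7 lower. Kitl (stem cell factor), which sustains blood stem cells, was at 105 and 56.4 CPM (0.89), and the growth factor receptor Pdgfra at 145 and 78.3 CPM (0.89). Foxc1, a transcription factor of Cxcl12-rich marrow stroma, was at 48.7 and 80.1 CPM (-0.72) and Ly6a (Sca-1) at 88.3 and 155 CPM (-0.81). Foxc1 and Cd44 lost their call in cells chosen by Hmcn1 alone. Ly6a lost its call in cells chosen by Il1rl1 alone and without the cells of under 1% mitochondrial UMIs. The members thus differed in opposite directions for Kitl and Cxcl12, the best known niche factors. Pdgfra, Kitl, Cxcl12, Acta2 and Ly6a are also among the markers that the study showed for these libraries.

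Of 16 measured FGF, PDGF and HGF genes, Fgf10 (195 and 106 CPM, log2 ratio 0.89), Fgf2 (108 and 65.8 CPM, 0.71), Hgf (20.5 and 12.5 CPM, 0.72) and Pdgfra were higher and none lower, with a median of 0.22. For this list and those that follow, the shares over all genes compared were 2.36% higher and 2.59% lower. Hgf lost its call in cells chosen by Hmcn1 alone and without dividing cells. The TGF-beta receptors Tgfbr2 and Tgfbr3 and the mediator Smad3 were higher (0.63, 0.62 and 0.66) and Tgfb2 lower (-0.70), but Tgfbr2 and Tgfbr3 were under 1.5-fold with TMM scaling, and none of the 3 higher genes passed it among the top 20% of cells or in cells chosen by Il1rl1 alone. Of the Wnt genes, the receptor Ror2 was at 229 and 145 CPM (0.66), and the antagonists Sfrp1, Sfrp2 and Dkk3 were lower (-1.12, -1.68 and -0.71). Insulin-like growth factor genes were lower in 4 of 10 cases, namely Igf1, Igfbp5, Igfbp7 and the protease gene Pappa, with Igfbp6 higher at 33.0 and 16.3 CPM (1.02).

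Of 6 measured retinoid and steroid enzyme genes, 3 were higher and 1 lower, against 2.36% and 2.59% of all genes compared. Aldh1a1, which makes retinoic acid, was at 608 and 348 CPM (0.81), and its close relative Aldh1a7 at 313 and 204 CPM (0.62), where reads may be shared between the pair. Crabp2, which carries retinoic acid to its receptor, was at 10.5 and 2.97 CPM (1.83), while Cyp26b1, which degrades it, was at 13.0 and 28.4 CPM (-1.13). In cells chosen by Il1rl1 alone, Aldh1a1, Aldh1a7 and Crabp2 lost their call, and only 5 genes of the list reached the 10 CPM used for the calls. Aldh1a7 was also under 1.5-fold with TMM scaling.

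**Figure D4:**
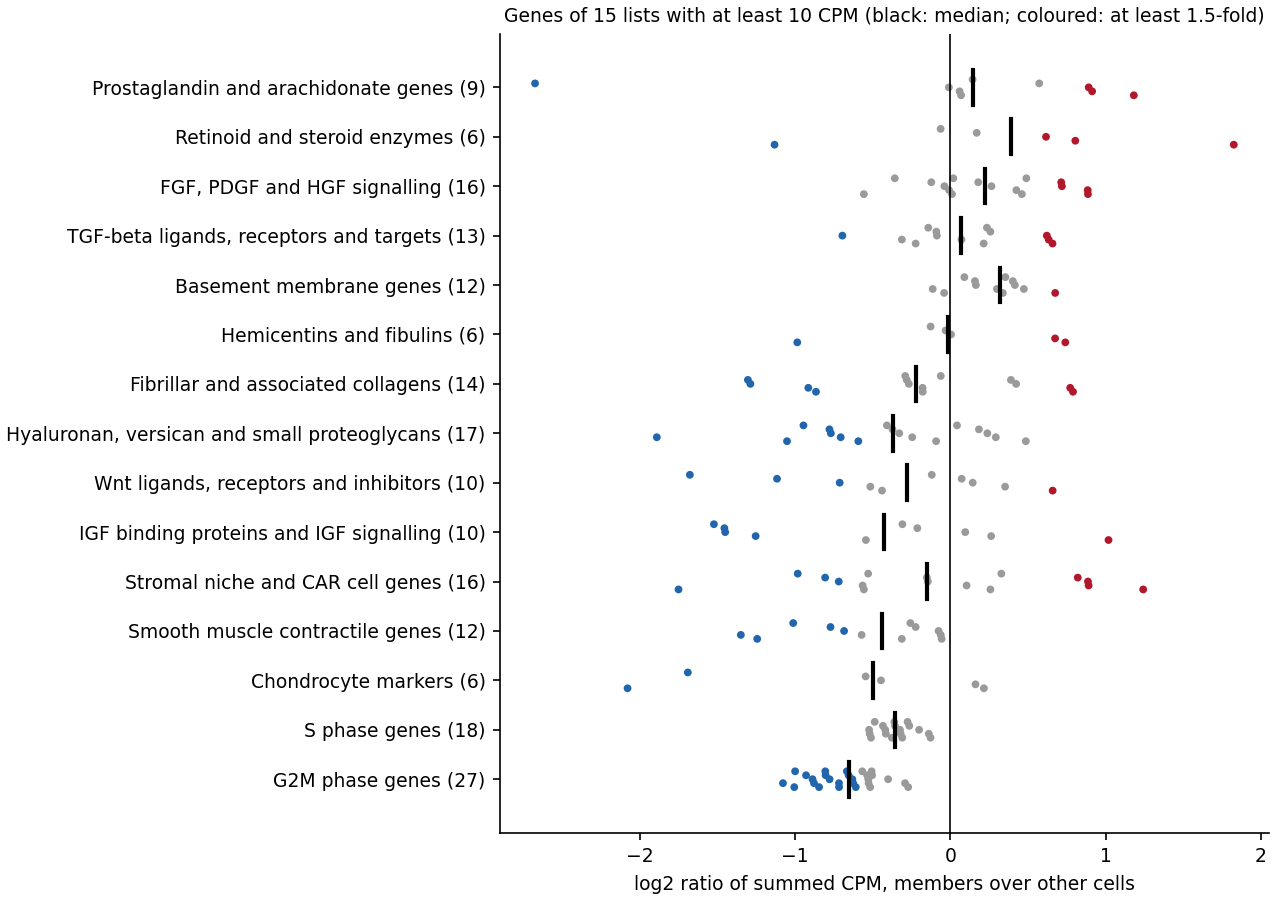
Each point is 1 gene with at least 10 CPM in either group, placed by its log2 ratio of members over other cells, in 15 gene lists with the number of measured genes in parentheses; red and blue mark at least 1.5-fold higher and lower, and the black bar is the list's median. All S phase, G2M phase and smooth muscle contractile genes lie left of 0, with medians of -0.36, -0.66 and -0.44, and Il1rl1 and Hmcn1 are left out.

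Transcripts of dividing cells were lower in members. Of 27 measured G2M phase genes, 17 were lower, against 2.59% of all genes compared, and none was higher, with a median log2 ratio of -0.66. That count ran from 5 of 27 in cells chosen by Il1rl1 alone to 23 of 28 without the cells of under 1% mitochondrial UMIs, and was 1 of 11 with dividing cells left out. Of 18 S phase genes none passed 1.5-fold, with a median of -0.36, but 8 were lower after thinning to 5000 UMIs. Ube2c, which drives mitotic exit, was at 34.3 and 72.4 CPM (-1.08) and Cdk1, the mitotic kinase, at 25.9 and 44.5 CPM (-0.78), whereas Mki67 was at 52.7 and 74.8 CPM (-0.51). With each cell thinned to 5000 UMIs, 50 of 454 members held at least 10 UMIs of either list (11.01%, 8.29% to 14.3%), against 660 of 4089 other cells (16.1%, 15.03% to 17.3%). Unthinned, the shares were 87.7% and 82.9%. The cell cycle inhibitor Cdkn1c was at 11.6 and 35.7 CPM (-1.62), and the stress cytokine Gdf15 at 2.88 CPM in members (-2.28), but Cdkn1a was at 660 and 636 CPM.

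The members carried few signs of other cell types. None of 9 mast cell markers reached 10 CPM, and 6 of them, Kit, Cma1, Mcpt4, Tpsb2, Tpsab1 and Fcer1a, had no UMI in members, with a summed level of 0.110 CPM in members and 0.229 CPM in other cells. Of 10 lymphoid and group 2 innate lymphoid markers, 5 had no UMI in members, among them Cd3e, Il7r and Il13, and the list summed to 349 CPM in members and 384 CPM in other cells, nearly all from Rora, a nuclear receptor gene at 346 and 375 CPM. The 12 haematopoietic markers summed to 16.0 CPM in members and 36.8 CPM in other cells. Cd68, a lysosomal protein of macrophages that fibroblasts also make, was at 10.9 and 5.38 CPM, Lyz2 (lysozyme) at 1.53 and 12.9 CPM, and Ptprc (CD45) at 0.164 CPM in members. The 11 cells with the most haematopoietic transcripts, whose median depth was 39652 UMIs, had Il1rl1 at 177 CPM and Hmcn1 at 15.6 CPM, and 1 of them was a member. Without that member Il1rl1 was at 11.2 CPM and Hmcn1 at 0, low levels that the choice of members in part fixes. After thinning to 5000 UMIs, Il1rl1 was found in 72.2% of members, 24.4% of other cells and 1 of these 11 cells (9.09%, 0.230% to 41.3%). That 1 cell was the member. Of the 10 cells without it, 0 held Il1rl1 (0% to 30.8%), too few cells to set a background.

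Groups of the same size taken on other genes held a smaller share of members than of other cells. Among their genes Cxcl12, Comp, Mmp13, Col1a2, Ly6a and Acta2 were themselves lower in members, which in part fixes this. Only 4 members (0.881%) were among the top 10% of cells by Cxcl12, which held 11.01% of the other cells. The top 10% by Mmp13 and Comp held 10 members (2.20%), by Sox9 14 (3.08%), by Col1a1, Col1a2 and Col3a1 21 (4.63%), and by Ly6a 22 (4.85%). These groups held 10.6% to 10.9% of the other cells. The top 10% by the S phase list held 6.39% of members and 10.4% of other cells, and by the G2M list 6.61% and 10.4%. The top 10% by Acta2 and Tagln held 36 members (7.93%), with an interval of 5.62% to 10.8%, near the 10.2% of other cells. Il1rl1 was at 26.8 CPM in the top cells by Cxcl12.

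Clusters made without Il1rl1 and Hmcn1 placed most members in 2 of 11. Cluster 5, with 425 cells and led by Col24a1, Ahrr, Bnc1, Pde10a and Garem1, held 144 members, or 33.9% of its cells (29.4% to 38.6%). Cluster 1, with 1049 cells and led by Angptl7, Wnt10a, Lgals3 and Aldh1a1, held 173, or 16.5% (14.3% to 18.9%). Together they held 69.8% of the members and 32.4% of all cells. Cluster 4, led by Mmp13, held 6 members among 503 cells, and cluster 7, led by Nr5a2 and Barx1, 1 among 288. Members were hence no cluster of their own, and even in cluster 5 most cells were not members.

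**Figure D5:**
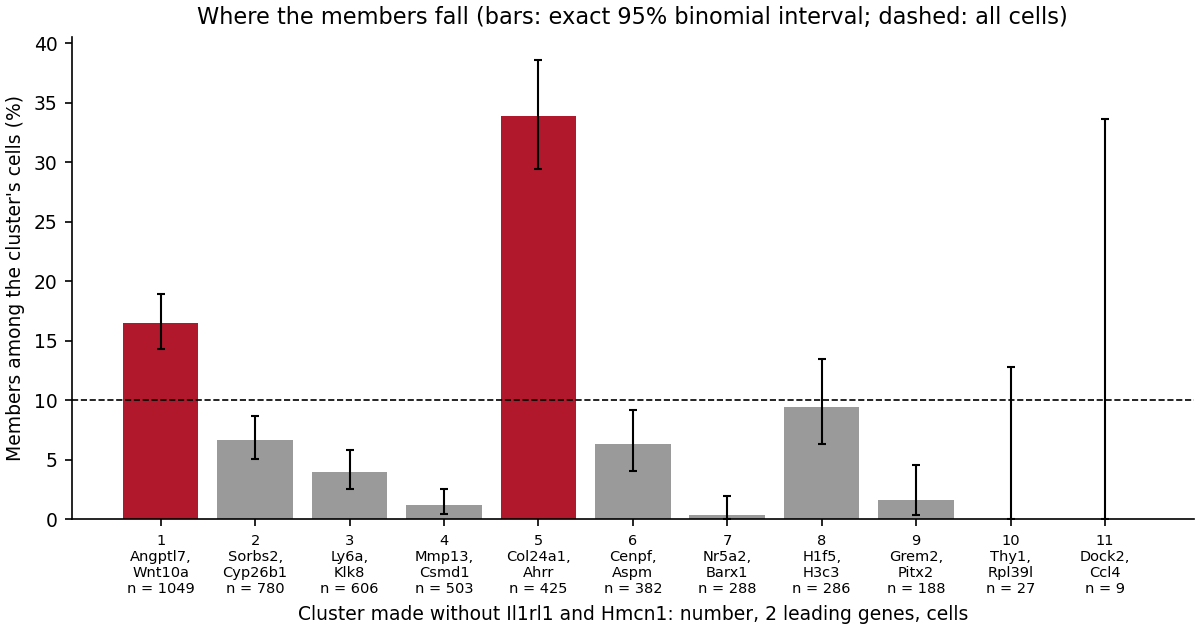
Share of members among the cells of each of 11 clusters made without Il1rl1 and Hmcn1, with exact 95% binomial intervals; labels give the cluster number, its 2 leading genes and its cells, and the dashed line is the share over all cells. Clusters 5 (33.9%) and 1 (16.5%), in red, lie above the line, and clusters 10 and 11 held no member.

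Within clusters the 30 highest and lowest genes mostly kept their sign. They had been picked from the comparison of these same cells, so keeping the sign was in large part fixed by that choice. In cluster 1, 28 of the 30 genes passed 1.5-fold between members and other cells and all 30 had the same sign as before. In cluster 5 all 30 had the same sign and 14 passed 1.5-fold. In clusters 2, 3, 6 and 8, which held 24 to 52 members each, 28 to 30 had the same sign and 20 to 28 passed 1.5-fold. Msln was at 53.1 CPM in the members of cluster 5 and 14.96 CPM in its other cells (log2 ratio 1.83), while Ahrr was at 108 and 92.4 CPM (0.22) and Slit3 at 331 and 256 CPM (0.37). Cxcl12 was at 140 and 364 CPM in cluster 1 (-1.37) and at 144 and 230 CPM in cluster 5 (-0.68).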

How the data were processed

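Primary and cultured mouse CDSCs gave 1 single-cell library each, made with a 3′ gene expression kit from 20000 viable cells. Per the study's methods the authors used Cell Ranger 7.0.0 with GRCm38, and deposited UMI counts by gene and barcode as whole numbers, with no normalisation. The annotation release was not given in the sources used here. Gene coordinates came from GENCODE M21 by identifier, and promoter windows from RefSeq (GRCm38.p6). Reads of near-identical genes may be shared or lost, and free RNA in droplets can add UMIs to any cell.

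The cell filter asked for 500 genes, 5000 UMIs and no more than 10% mitochondrial UMIs, and left 4543 of 10798 cultured and 10959 of 11896 primary barcodes. Counts were summed over members and over other cells and scaled to CPM. Log2 ratios used counts raised to at least 3, and genes with at least 10 CPM in either group were compared and called at 1.5-fold. Cells are not replicates, so no test was run. Poisson, binomial (Clopper-Pearson) and conditional intervals cover counting error only. The scripts were tested on simulated data. Named genes were Il1rl1, Hmcn1, the 15 highest and 15 lowest genes with at least 50 CPM in either group apart from mitochondrial and ribosomal protein genes, members of 46 gene lists, and the 10 genes most correlated with each of Il1rl1 and Hmcn1. Genes below 10 CPM and 2 further lists (prostaglandin and mesothelial genes) were named after values were seen. The members and lists were chosen with earlier results of these data known.

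Shares of cells were compared after thinning each cell to 5000 UMIs. Clusters came from the Leiden method (leidenalg 0.10.2, resolution 0.5, 20 neighbours, 10 principal components, 2000 variable genes). Scrublet in scanpy 1.11.5 called 3 doublets and had not worked, so in an alternative the 392 cells of highest score, which included 10.6% of members and 8.41% of other cells, were left out. TMM factors came from edgeR 4.0.16. Other alternatives changed the level for inclusion, the fold, the weighting, the depth, the share and genes used to choose cells, and the mitochondrial limit.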

Additional observations from a re-analysis of the deposited data

How the results depend on the processing

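No paired analysis was possible because members and other cells all came from 1 library, and no result came from a test. Leaving out a replicate was not possible for the same reason. The counts of genes past 1.5-fold, 205 higher and 225 lower, depended on the level for inclusion and on the fold: they were 448 and 582 at 1 CPM and 98 and 79 at 50 CPM. A 2-fold limit left 36 and 81. Thinning every cell to 5000 UMIs gave 382 and 353, a setting with fewer counts per gene. The top 5% of cells gave 327 higher genes and the top 20% gave 134, against 279 and 170 lower. Choosing cells on Hmcn1 alone gave 132 higher and 170 lower, of which 120 and 155 were also in the original sets. The remaining alternatives kept both counts within 1.5 times: equal weight for each cell, 5 depth ranges, cells of at least 20000 UMIs, TMM scaling, choice on Il1rl1 alone (151 and 177), choice and comparison on separate parts of the UMIs (201 and 207), cells of high doublet score left out (235 and 251), dividing cells left out (192 and 202), at most 5% mitochondrial UMIs, and, added after the data were seen, cells under 1% mitochondrial UMIs left out. For the 30 highest and lowest genes, 420 ratios were recomputed under 14 alternatives; 191 stayed within the original counting interval, 229 moved beyond it and 0 changed sign. In that range Msln ran from 1.72 to 2.59 and Cxcl12 from -2.02 to -1.42 on the log2 scale, and Dio2 was under 1.5-fold (0.58) for cells chosen on Hmcn1 alone. With dividing cells left out, the G2M list's median was -0.34 and the S list's -0.22. The causes of these shifts were not tested. Depth limited rare transcripts: 3 counts over all members are 0.0822 CPM.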

Other observations

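Cell contact genes not described above also differed in members. The gap junction gene Gja1 was at 266 CPM in members and 145 CPM in other cells (log2 ratio 0.88), the protocadherins Pcdh7 at 1038 and 642 CPM (0.69) and Pcdh19 at 76.4 and 45.3 CPM (0.75), and the adhesion gene Alcam at 52.9 and 81.2 CPM (-0.62). Alcam kept its call in 9 of 14 alternatives and lost it in cells chosen by either gene alone. Pcdh7 lost its call among the top 20% of cells and in cells chosen by Il1rl1 alone, and Pcdh19 in cells chosen by Hmcn1 alone. The integrin chain Itga6 was at 41.7 and 24.1 CPM (0.79), while Itga11, a collagen receptor chain, was at 26.5 and 44.8 CPM (-0.75). Itga6 lost its call in cells chosen by Hmcn1 alone, and Itga11 among the top 20% of cells and in cells chosen by Il1rl1 alone. Of the related mesenchymal transcription factors, Twist2 was at 43.9 and 24.9 CPM (0.82) and Snai2 at 27.9 and 53.2 CPM (-0.93).

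Metabolic genes past 1.5-fold were few. Scd1, which desaturates fatty acids, was at 65.1 and 35.9 CPM (0.86), the fatty acid carrier Fabp4 at 19.8 and 46.9 CPM (-1.24), the glucose transporter Slc2a1 at 64.2 and 41.4 CPM (0.63, past 1.5-fold in 9 of 14 alternatives) and the quinone reductase Nqo1 at 131 and 77.1 CPM (0.77). Nqo1 lost its call in cells chosen by Hmcn1 alone. None of 17 measured endoplasmic reticulum stress genes and none of 7 measured interferon response and MHC class I genes passed 1.5-fold. The Y-linked gene Ddx3y was at 111 CPM in members and 100.3 CPM in other cells, with a UMI in 90.7% and 90.2% of cells.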
